A study of Homo sapiens with 2 samples.

Results

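Type I and type II interferons reach a cell through 2 receptors, each built from 2 chains, and each chain holds a Janus kinase on its inner side. The receptor chains and kinases measured here were IFNGR1, IFNGR2, IFNAR1, IFNAR2, JAK1, JAK2 and TYK2, taken by symbol from the gene expression rows of the count matrix. These 7 genes were all in the matrix, of 36601 genes in all, and all 7 had 100 UMIs or more over the cells used. A UMI is a molecular barcode that counts a captured RNA molecule once.

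The type II interferon, IFN gamma (IFNy in the labels), binds IFNGR1, and IFNGR2 joins the complex. JAK1 sits on IFNGR1 and JAK2 on IFNGR2, and together they phosphorylate STAT proteins, which then act on genes such as IRF1 and CXCL10. The type I interferons bind IFNAR2 with high affinity and IFNAR1 with lower affinity. JAK1 on IFNAR2 and TYK2 on IFNAR1 then phosphorylate STAT proteins, STAT2 among them, which join IRF9 in the ISGF3 complex. TNFa acts through receptors of another kind, TNFRSF1A and TNFRSF1B, and through the NF-kB factors, with no Janus kinase.

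The cells came from tumours of OVCAR5, an established human ovarian carcinoma line, here carrying an IFNy-sensing reporter and CFP, a fluorescent protein. The tumours grew in NSG-B2m-/- mice, an immunodeficient strain that also lacks beta-2 microglobulin, and the cytokines were injected into the tumour. The pool held 13 tumours, and the labels call the sorted CFP+ tumour cells bystanders. The labels list 3 tumours injected with TNFa (10 ng/ml, 6 h), 2 with both TNFa (10 ng/ml) and IFNy (100 ng/ml, 6 h), and 3 with IFNy alone at 100 ng/ml, of which 2 were harvested after 24 h and 1 after 48 h. The 5 tumours unexposed in vivo consisted of 2 for 6 h, 2 for 24 h and 1 for 48 h. The treatment fields of the labels name other, single conditions, at odds with that list.

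All cells were in 1 library, and each cell's tumour was marked with antibody hashtags. Cells carried 2 hashtags each, and 13 hashtag pairs with 110 to 507 cells made up the 2994 cells used. The labels do not say which pair is which tumour. So no pair has a cytokine or a time here, no exposed group was set against an unexposed one, and every statement is about pairs of hashtags in 1 library with no p-value. Hashtag HTO2 was in 5 of the pairs, HTO3 in 4 and HTO4 in 4, each joined to HTO5, HTO6, HTO7, HTO8 or HTO9. Levels are in CPM, the UMIs of a gene per 1000000 UMIs of the pair. The intervals are exact Poisson 95% intervals for a level, exact binomial ones for a ratio of levels and exact Clopper-Pearson ones for a share of cells, and all cover counting error only.

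The 2994 cells held 29032973 gene UMIs, with a median of 8646 UMIs, 2842 genes and 14.9% mitochondrial UMIs per cell. The pairs held 765923 to 5058403 UMIs. Of the 10 epithelial markers, at least 3 were found in 2845 cells (95.02%), which goes with the carcinoma label. At least 3 fibroblast markers were found in 2 cells and at least 3 macrophage markers in 3 cells, and no cell held 3 endothelial, T cell or erythroid markers. KDR, CD3E, CD2, HBA1 and HBA2 were at 0.

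Genes of 3 of the 4 receptor chains are neighbours in the genome. On GRCh38 with the GENCODE 29 annotation, IFNAR2 (chr21:33229901-33265675), IL10RB (chr21:33266358-33310187), IFNAR1 (chr21:33324477-33359862) and IFNGR2 (chr21:33402896-33479348) follow each other on the plus strand within 249.4 kb. IL10RB encodes a receptor chain for IL-10 and for the type III interferons. IFNGR1 lies at chr6:137197484-137219449 on the minus strand, JAK1 at chr1:64833229-64966504 on the minus strand, JAK2 at chr9:4984390-5128183 on the plus strand and TYK2 at chr19:10350529-10380676 on the minus strand. The whole-gene spans of IFNGR2, IFNAR2, JAK1 and JAK2 each overlap an annotated gene on the opposite strand that is also in the matrix (TMEM50B, IL10RB-DT, RAVER2 and INSL6), and the use of strand in counting was not given in the sources used here. JAK2 also overlaps a pseudogene on its own strand that is in the matrix, IGHEP2, with 15 UMIs.

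Promoter windows are shown for 3 of the genes: both chains of the IFNy receptor and JAK2. The windows run from 250 bases before to 50 bases after a RefSeq start site on GRCh38.p14, read on the gene's own strand, and the window nearest to the annotated start of the gene is given. The IFNGR1 window is chr6:137219336-137219635 (minus strand), the IFNGR2 window chr21:33403163-33403462 (plus strand) and the JAK2 window chr9:4984140-4984439 (plus strand). Capitals mark matches to the NF-kB consensus.
IFNGR1: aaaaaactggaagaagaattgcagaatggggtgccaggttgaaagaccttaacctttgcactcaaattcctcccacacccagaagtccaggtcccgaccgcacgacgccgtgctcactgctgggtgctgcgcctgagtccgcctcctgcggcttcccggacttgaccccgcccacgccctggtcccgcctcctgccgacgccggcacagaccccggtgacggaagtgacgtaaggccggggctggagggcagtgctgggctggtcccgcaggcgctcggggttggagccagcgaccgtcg
IFNGR2: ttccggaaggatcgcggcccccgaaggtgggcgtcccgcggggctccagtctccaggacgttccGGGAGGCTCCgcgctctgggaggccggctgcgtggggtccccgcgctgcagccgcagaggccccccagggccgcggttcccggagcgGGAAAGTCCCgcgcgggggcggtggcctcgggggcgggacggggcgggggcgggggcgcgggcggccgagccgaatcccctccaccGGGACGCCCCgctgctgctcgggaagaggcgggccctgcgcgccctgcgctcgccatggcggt
JAK2: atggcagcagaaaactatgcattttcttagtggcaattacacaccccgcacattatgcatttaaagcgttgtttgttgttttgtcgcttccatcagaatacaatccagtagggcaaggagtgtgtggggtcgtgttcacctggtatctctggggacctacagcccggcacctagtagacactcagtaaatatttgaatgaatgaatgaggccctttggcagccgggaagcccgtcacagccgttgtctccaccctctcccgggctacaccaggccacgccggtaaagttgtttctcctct

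A search was made for 3 motifs on both strands of 13 windows of 6 of the genes: the STAT site TTCNNNGAA, the interferon response element (GAAA, any 2 bases, GAAA) and the NF-kB consensus. The STAT site was in 0 of 13 windows, and in 7.67% of the 34796 windows of all genes. The interferon response element was in 0 of 13, against 3.57% of all windows. The NF-kB consensus was in 2 of 13, against 11.3% of all windows. The IFNGR2 window held 3 matches, which begin 186, 99 and 13 bases before the start site, the middle one on the minus strand. A second IFNGR1 window (chr6:137219147-137219446) held 1 match, 21 bases after its start site, and the one printed above held none. A match is a run of letters and says nothing of binding.

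RNA of the ligands was almost undetected in these cells. Of 9 interferon genes looked for, IFNE had 41 UMIs, IFNL3 had 1 and the other 7, IFNG and IFNB1 included, had 0, which allows up to 0.103 CPM over all cells (3 counts of the total).

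IFNGR1, the chain that binds IFNy, was highest in pairs with HTO2. Its level was 52.0, 115.6, 92.1, 50.8 and 61.7 CPM in HTO2 joined to HTO5, HTO6, HTO7, HTO8 and HTO9. It was 37.5, 32.2, 30.9 and 31.3 in HTO3 joined to HTO5, HTO6, HTO7 and HTO9, and 29.2, 41.2, 29.6 and 19.6 in HTO4 joined to HTO6, HTO7, HTO8 and HTO9. The 5 HTO2 pairs did not overlap the other 8: the median was 61.7 against 31.1, a ratio of 1.98. HTO2+HTO6 stood above HTO2+HTO7 beyond counting error (1.26-fold, 1.08 to 1.45), and HTO2+HTO7 above HTO2+HTO9 (1.49-fold, 1.23 to 1.82). All further neighbours in the order of levels were within counting error. HTO2+HTO6 over the lowest pair, HTO4+HTO9, was 5.90 (3.54 to 10.6), from 424 against 15 UMIs.

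IFNGR2, the chain that carries JAK2, had the same leading pairs. Its level was 88.8, 163, 154, 73.0 and 91.6 CPM in HTO2 with HTO5, HTO6, HTO7, HTO8 and HTO9. In HTO3 with HTO5, HTO6, HTO7 and HTO9 it was 51.3, 52.4, 56.0 and 57.4, and in HTO4 with HTO6, HTO7, HTO8 and HTO9 it was 63.5, 64.6, 47.8 and 57.4. The median of the HTO2 pairs was 91.6 against 56.7 in the other pairs, with no overlap. The step from the lowest HTO2 pair to the highest other pair, HTO2+HTO8 over HTO4+HTO7, was within counting error (1.13-fold, 0.90 to 1.42). HTO2+HTO6 and HTO2+HTO7 were alike within counting error and stood apart from the third pair, HTO2+HTO9 (HTO2+HTO7 over HTO2+HTO9 1.68-fold, 1.44 to 1.97). HTO2+HTO5 over HTO2+HTO8 was 1.22-fold (1.00 to 1.49), and no neighbours among the other 8 pairs differed beyond counting error. HTO2+HTO6 over the lowest pair, HTO4+HTO8, was 3.42 (2.67 to 4.43). The ratio of IFNGR1 to IFNGR2 UMIs lay between 0.34 and 0.73 over the 13 pairs, and since molecules of different genes may be captured unequally only its change between pairs can be read.

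**Figure D1:**
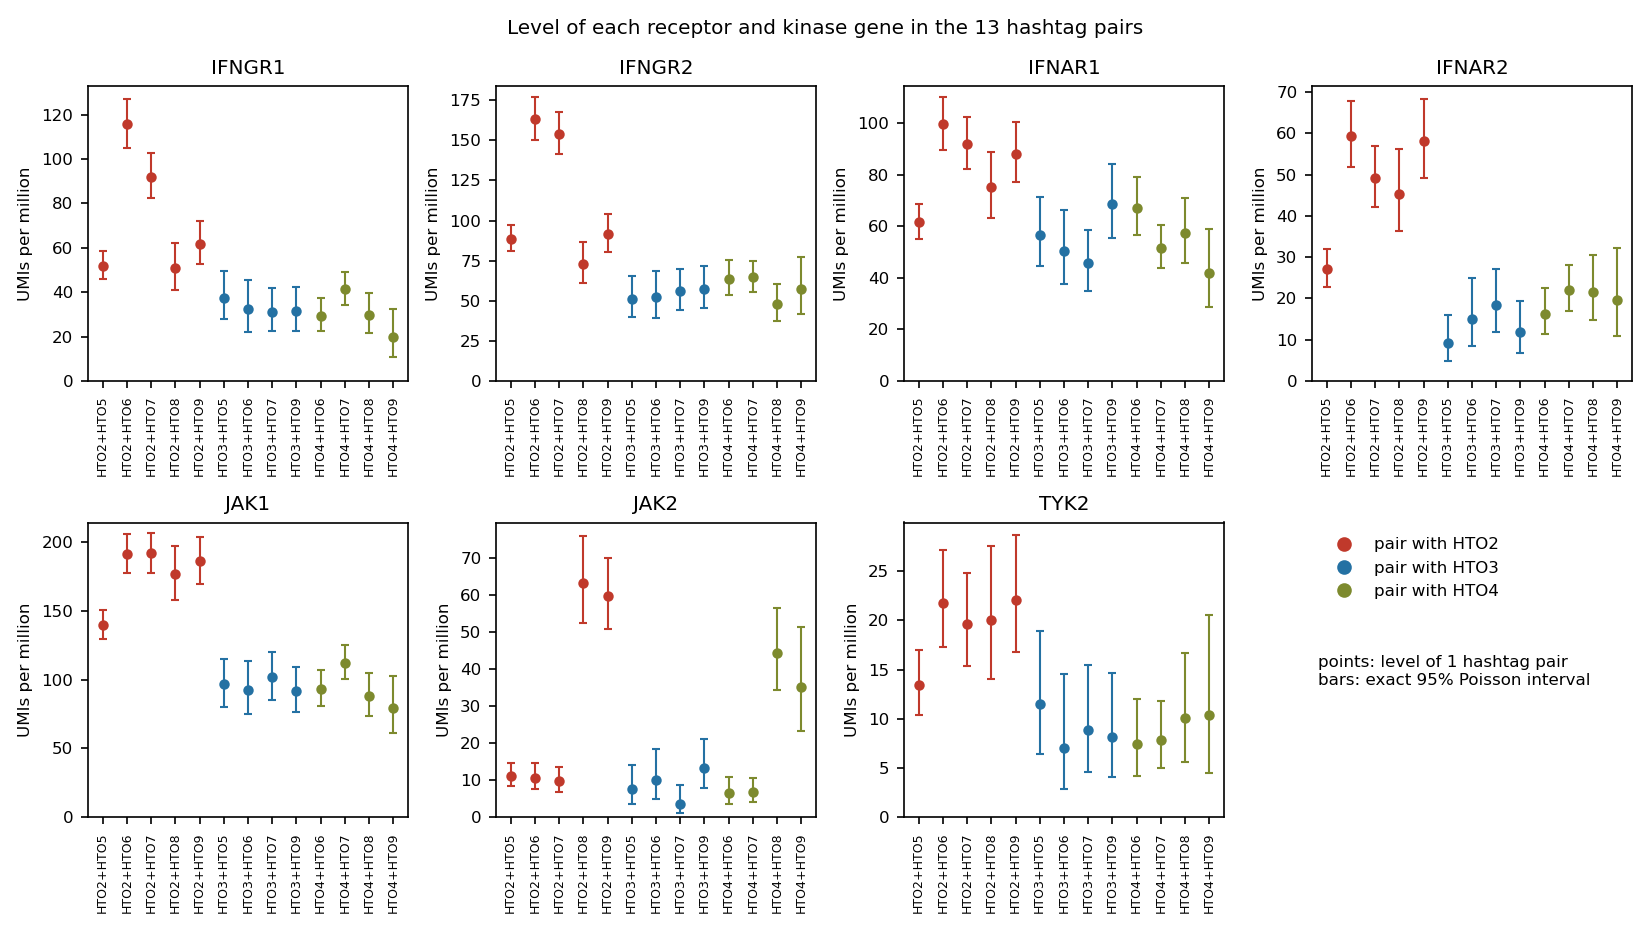
Level of each gene in each hashtag pair, in CPM on a linear axis from 0, with exact Poisson 95% intervals; pairs with HTO2 are red, with HTO3 blue and with HTO4 olive. For IFNGR1, IFNGR2, IFNAR2, JAK1 and TYK2 the lowest HTO2 pair lies above the highest other pair, and for JAK2 the 4 high pairs are those with HTO8 and with HTO9 joined to HTO2 or HTO4.

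The chains of the type I receptor differed in how far they spread. IFNAR2, the high-affinity chain, was at 27.1, 59.4, 49.1, 45.4 and 58.2 CPM in HTO2 with HTO5, HTO6, HTO7, HTO8 and HTO9. It was at 9.19, 15.1, 18.4 and 11.9 in HTO3 with HTO5, HTO6, HTO7 and HTO9, and at 16.2, 22.0, 21.6 and 19.6 in HTO4 with HTO6, HTO7, HTO8 and HTO9. The median of the HTO2 pairs was 49.1 against 17.3 in the other pairs, a ratio of 2.84 that was the highest among the 7 genes, and the groups did not overlap. Within the HTO2 pairs only HTO2+HTO5 stood below its neighbour (HTO2+HTO8 over HTO2+HTO5 1.68-fold, 1.26 to 2.22). HTO2+HTO5 over the highest other pair, HTO4+HTO7, was within counting error (1.23-fold, 0.91 to 1.68). HTO2+HTO6 over HTO3+HTO5 was 6.47 (3.63 to 12.7).

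IFNAR1, the partner chain that carries TYK2, varied least among the 7. It was at 61.5, 99.5, 91.8, 75.1 and 88.1 CPM in HTO2 with HTO5, HTO6, HTO7, HTO8 and HTO9, at 56.7, 50.4, 45.7 and 68.5 in HTO3 with HTO5, HTO6, HTO7 and HTO9, and at 67.2, 51.5, 57.3 and 41.8 in HTO4 with HTO6, HTO7, HTO8 and HTO9. HTO2+HTO5 lay below HTO3+HTO9 and HTO4+HTO6, so the groups overlapped, and none of the 12 steps between neighbours exceeded counting error. HTO2+HTO6 over HTO4+HTO9 was 2.38 (1.66 to 3.54). The ratio of IFNAR2 to IFNAR1 UMIs was 0.44 to 0.66 in the HTO2 pairs and 0.16 to 0.47 in the other pairs.

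Of the kinases, JAK1, which serves both receptors, was the one whose HTO2 and other pairs were separated beyond counting error. It was at 139.8, 191, 192, 177 and 186 CPM in HTO2 with HTO5, HTO6, HTO7, HTO8 and HTO9. It was at 96.5, 92.7, 101.6 and 91.6 in HTO3 with HTO5, HTO6, HTO7 and HTO9, and at 93.2, 112, 88.2 and 79.6 in HTO4 with HTO6, HTO7, HTO8 and HTO9. The step from the lowest HTO2 pair to the highest other pair, HTO2+HTO5 over HTO4+HTO7, itself exceeded counting error (1.24-fold, 1.09 to 1.42). The medians were 186 in HTO2 pairs against 92.9 in the others, a ratio of 2.00, and the highest pair, HTO2+HTO7, was 2.41 times (1.85 to 3.18) the lowest, HTO4+HTO9.

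TYK2, the type I kinase, was at 13.4, 21.8, 19.7, 20.0 and 22.1 CPM in HTO2 with HTO5, HTO6, HTO7, HTO8 and HTO9. It was at 11.5, 7.05, 8.84 and 8.19 in HTO3 with HTO5, HTO6, HTO7 and HTO9, and at 7.42, 7.90, 10.1 and 10.4 in HTO4 with HTO6, HTO7, HTO8 and HTO9. The groups did not overlap (medians 20.0 against 8.52), but with 419 UMIs in all, the only step beyond counting error was between HTO2+HTO7 and HTO2+HTO5 (1.46-fold, 1.03 to 2.07). HTO2+HTO9 over HTO3+HTO6 was 3.14 (1.43 to 8.15). The groups overlapped for TYK2 when cells were thinned to 4000 UMIs or weighted equally.

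JAK2, the kinase of IFNGR2, followed other hashtags. It was at 11.3, 10.6, 9.83, 63.2 and 59.7 CPM in HTO2 with HTO5, HTO6, HTO7, HTO8 and HTO9. It was at 7.66, 10.1, 3.68 and 13.4 in HTO3 with HTO5, HTO6, HTO7 and HTO9, and at 6.49, 6.87, 44.5 and 35.3 in HTO4 with HTO6, HTO7, HTO8 and HTO9. So 4 pairs were high, HTO8 and HTO9 joined to HTO2 or HTO4, and 9 were low, and HTO3+HTO9 was among the low ones. The lowest of the high pairs, HTO4+HTO9, was 2.63 times (1.40 to 5.07) the highest of the low ones, HTO3+HTO9. HTO2+HTO9 over HTO4+HTO8 was 1.34-fold (1.00 to 1.82), and the other neighbours were within counting error. HTO2+HTO8 over HTO3+HTO7 was 17.2 (7.15 to 53.9), from 117 against 5 UMIs. Relative to TYK2, JAK2 had 3.16, 2.70, 4.40 and 3.38 UMIs per TYK2 UMI in the high pairs, against 0.42 to 1.64 in the low pairs. Relative to JAK1 the ratios were 0.32 to 0.50 in the high pairs, against 0.04 to 0.15 in the low ones.

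These spreads can be set against all genes. A gene was called different between pairs where it had 100 UMIs or more and the lower 95% bound of its highest over lowest ratio was above 2. IFNGR1, IFNGR2, IFNAR2 and JAK2 met this, 4 of 7, against 12.2% of the 11087 genes tested. The highest and lowest pair of each gene were picked from the levels themselves, and the intervals do not allow for that choice. So these ratios and calls are descriptions. The coefficient of variation over pairs, after the counting part was subtracted, was 96.3% for JAK2, 60.6% for IFNAR2, 56.8% for IFNGR1, 47.8% for IFNGR2, 40.0% for TYK2, 34.5% for JAK1 and 26.3% for IFNAR1. Their median was 47.8%, against 13.9% over all genes tested and 12.7% over 10 housekeeping genes. None of those 10 was called.

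The splits by hashtag were chosen after the levels were seen and so are descriptions. All HTO2 pairs lay above all others for 5 of 7 genes (IFNGR1, IFNGR2, IFNAR2, JAK1 and TYK2), against 1.70% of genes tested. The step from the lowest HTO2 pair to the highest other pair exceeded counting error for JAK1 alone. All HTO2 pairs lay below all others for 0 of 7, against 1.53%. The pairs with HTO8 and HTO9 lay above the rest both within HTO2 and within HTO4 for JAK2 alone of the 7, against 5.99%. HTO2+HTO6 and HTO2+HTO7 were both above all other pairs for IFNGR1, IFNGR2, IFNAR1 and JAK1, against 2.81%. The same held for 6 of 8 TNFa targets and for 2 of the 10 housekeeping genes, HPRT1 and PGK1. For IFNAR1 and JAK1 the step down to the third pair, HTO2+HTO9, was within counting error (1.04-fold, 0.88 to 1.24, and 1.03-fold, 0.91 to 1.16). The median log2 ratio of HTO2 to other pairs was 0.99 for the 7 genes and -0.13 for all genes tested.

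The depth per cell of the HTO2 pairs lay within the range of the rest. The median per cell was 8630 to 9431 UMIs in HTO2 pairs and 6434.5 to 9450 in the others, and the median mitochondrial share 14.3% to 15.3% against 14.4% to 15.6%. The summed epithelial markers were at 3689 to 5657 against 4341 to 7506 CPM. Summed fibroblast markers were at 1.62 to 7.71 against 1.01 to 36.0, and summed macrophage markers, mostly CD68, at 41.1 to 51.3 against 36.6 to 51.9, so neither was raised across the HTO2 pairs. In the 4077 barcodes of these pairs that failed the mitochondrial limit, only JAK1 (104.9 to 171 against 50.9 to 89.5) and TYK2 (15.0 to 23.2 against 7.34 to 14.5) kept the HTO2 pairs fully above the others. For IFNGR1 the medians there were 50.5 against 31.2, and the lowest HTO2 pair lay below the highest other pair.

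**Figure D2:**
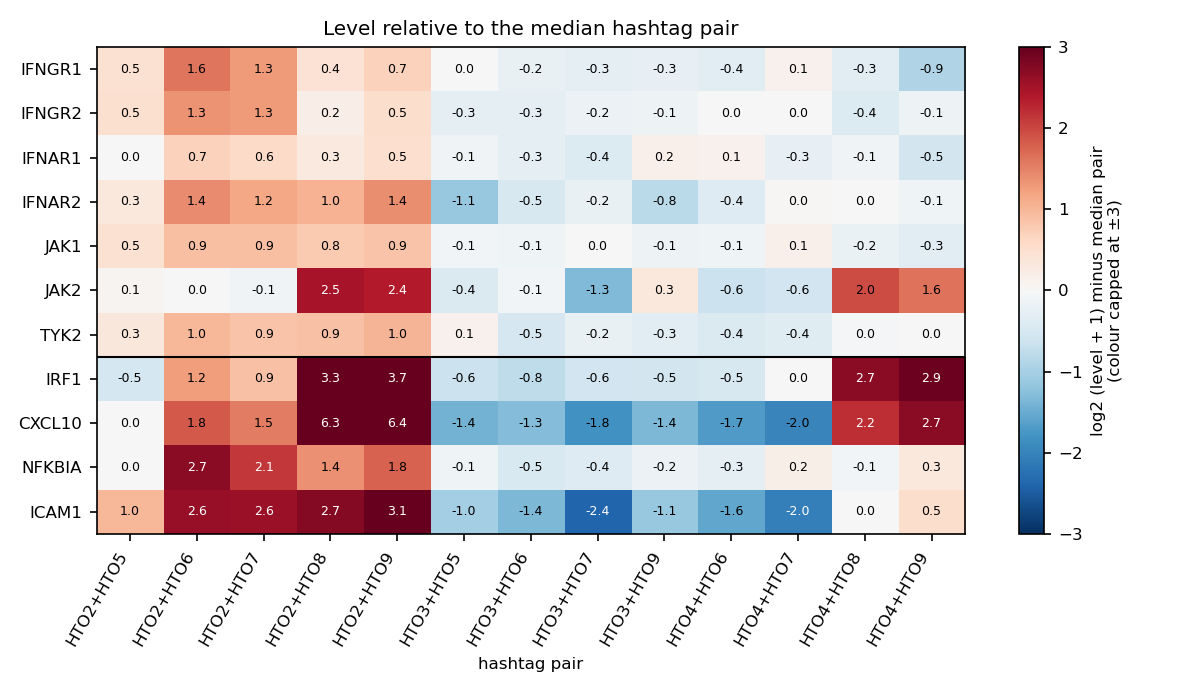
Log2 of the level (CPM + 1) of the 7 genes and of IRF1, CXCL10, NFKBIA and ICAM1 in each hashtag pair, minus the median over the 13 pairs; colours are capped at 3 above and below. The row of JAK2 is raised in the 4 pairs where IRF1 and CXCL10 are highest. IRF1 and CXCL10 also lie above their median in HTO2+HTO6 and HTO2+HTO7, where JAK2 does not. Of the 6 receptor and kinase genes other than JAK2, all but IFNAR1 lie above their median in all 5 HTO2 pairs.

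The pairs differed widely in the genes that the cytokines are known to act on. The 12 targets of IFNy, among them IRF1, CXCL10, GBP1, IDO1 and HLA-DRA, summed to 21939 and 18349 CPM in HTO2+HTO8 and HTO2+HTO9, 9025 and 10367 in HTO4+HTO8 and HTO4+HTO9, and 504 to 2110 in the other 9 pairs. These are the 4 pairs with high JAK2. All 12 were called (12.2% of all genes) and all 12 met the HTO8 and HTO9 split (5.99% of all genes). The 0 of 12 that met the HTO2 split is near the 1.70% of all genes. These lists and splits were chosen with the levels known, so the counts are descriptions. The 8 TNFa targets (NFKBIA, TNFAIP3, ICAM1, CXCL8, BIRC3, SOD2, CCL20 and RELB) summed to 1008, 4822, 3836, 3076 and 3798 in HTO2 with HTO5 to HTO9 and to 309 to 734 in the others. All 8 were called (12.2% of all genes). ICAM1, BIRC3, SOD2 and RELB met the HTO2 split, 4 of 8 (1.70% of all genes). ICAM1 alone met the HTO8 and HTO9 split, 1 of 8 (5.99% of all genes). HTO2+HTO5 was thus the HTO2 pair with the lowest TNFa targets, and for IFNAR1, IFNAR2, JAK1 and TYK2 it was also the lowest HTO2 pair. For the other members it was not. HTO2+HTO8 was the lowest HTO2 pair for IFNGR1 (50.8 against 52.0 in HTO2+HTO5) and for IFNGR2 (73.0 against 88.8). For JAK2 it was HTO2+HTO7 (9.83 against 11.3). The part that either cytokine had in these levels was not tested.

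**Figure D3:**
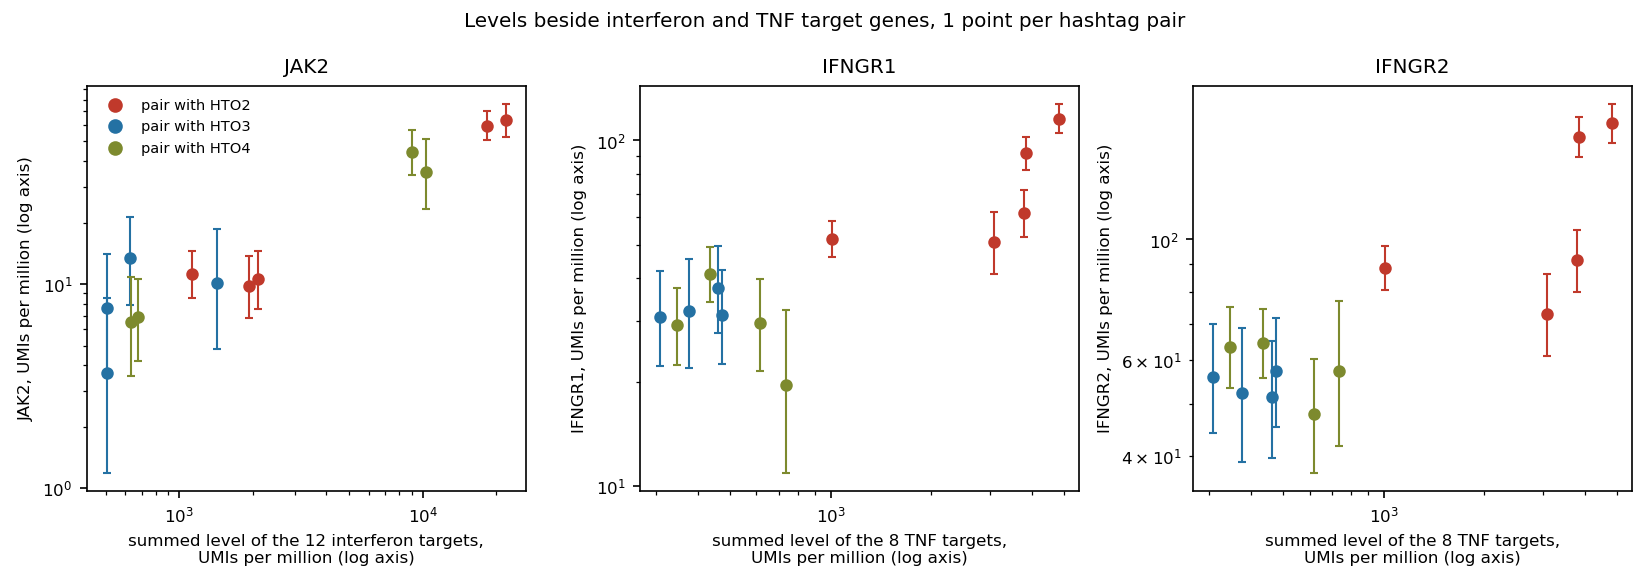
Level of JAK2 against the summed level of 12 IFNy targets, and of IFNGR1 and IFNGR2 against the summed level of 8 TNFa targets, one point per hashtag pair, all in CPM on log axes. The 4 pairs with JAK2 at 35.3 to 63.2 are those with target sums of 9025 to 21939, and the pairs with IFNGR2 above 150 are the 2 with HTO6 and HTO7 joined to HTO2. HTO2+HTO9 and HTO2+HTO7 have close TNFa target sums (3798 and 3836). Their levels differ for IFNGR2 (91.6 and 154) and for IFNGR1 (61.7 and 92.1).

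Over the 13 pairs, which share 1 library and its denominators, the levels of 6 of the genes moved together and JAK2 stood apart. On log2(CPM + 1), Pearson's r was 0.92 between IFNGR1 and IFNGR2, 0.93 between IFNGR1 and JAK1, 0.90 between IFNAR2 and JAK1, 0.90 between JAK1 and TYK2 and 0.71 between IFNAR1 and IFNAR2. With JAK2 it was -0.01 for IFNGR1, -0.01 for IFNGR2, 0.21 for IFNAR1, 0.43 for IFNAR2, 0.23 for JAK1 and 0.47 for TYK2.

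The genes most like each one were sought among the 8014 genes with 300 UMIs or more. For JAK2 they were TRAFD1 (r = 0.966), CXCL11 (0.962), a chemokine, and CD274 (0.959), which encodes PD-L1. For IFNGR1 they were ST3GAL4 (0.961), PLPP3 (0.958) and FTH1 (0.957), the ferritin heavy chain. For IFNGR2 they were WFDC2 (0.947), TNFRSF11B (0.944), which encodes osteoprotegerin, and CITED4 (0.942). FTH1 (0.988) also led for JAK1, followed by PTP4A3 (0.980) and SDC4 (0.973), a syndecan. For TYK2 they were MIR155HG (0.972), the host gene of miR-155, SOD2 (0.968) and TNIP1 (0.966). For IFNAR1 they were NFKBIE (0.941), an inhibitor of NF-kB, TNFRSF10B (0.939), a TRAIL receptor, and FAM107B (0.927). For IFNAR2 they were FRMD4A (0.955), EXOC3L4 (0.954) and LYN (0.950), a Src family kinase. With Spearman's rho in place of Pearson's r, none of the 3 was kept for IFNGR1, IFNGR2 and IFNAR2, 1 for JAK1, JAK2 and TYK2, and 2 for IFNAR1, so these names describe 13 points and no more.

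Downstream of the receptors, STAT2 and IRF9, parts of the ISGF3 complex, were both called (12.2% of all genes). STAT2 was at 101.6 CPM in HTO2+HTO8 and 16.1 in HTO3+HTO5 (6.32-fold, 4.02 to 10.4), and IRF9 at 143.6 in HTO4+HTO9 and 40.2 in HTO3+HTO9 (3.57-fold, 2.56 to 5.04). STAT3, the main carrier of IL-6 signals, was at 147 in HTO2+HTO9 and 68.1 in HTO3+HTO5 (2.16-fold, 1.71 to 2.76) and was not called. STAT5A, STAT5B and STAT6 were not called either. STAT5A met the HTO2 split (1.70% of all genes), with 113 UMIs in all. The HTO8 and HTO9 split (5.99% of all genes) was met by STAT2, STAT3, STAT6 and IRF9, and not by STAT5A or STAT5B. Of 11 feedback genes, 9 had enough UMIs and 2 were called. SOCS1, which binds and blocks Janus kinases, was at 104.8 in HTO2+HTO9 and 7.66 in HTO3+HTO5 (13.7-fold, 7.33 to 28.9), and USP18, which blocks signalling at IFNAR2, varied 8.07-fold. The 2 of 9 called and the 0 of 9 that met the HTO2 split are near the shares over all genes (12.2% and 1.70%), and 3 of 9 met the HTO8 and HTO9 split (5.99% of all genes).

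Among 14 other genes of receptors that use Janus kinases, 9 had enough UMIs and 5 were called: IL6R, LIFR, IL4R, IL2RG and IL15RA. That is 5 of 9, against 12.2% of all genes. The HTO8 and HTO9 split was met by 4 of 9 (IL6ST, LIFR, IL2RG and IL15RA), against 5.99% of all genes. IL15RA, the IL-15 receptor alpha chain, was at 122.7 in HTO2+HTO8 and 13.3 in HTO3+HTO7 (9.26-fold, 5.72 to 15.9). IL6ST, the shared chain gp130, alone met the HTO2 split (87.8 to 126 in HTO2 pairs against 55.6 to 74.3), 1 of 9, against 1.70% of all genes. IL10RB, which lies between IFNAR2 and IFNAR1 on the chromosome, was not called (48.3 in HTO2+HTO7 against 22.2 in HTO4+HTO9, 2.18-fold, 1.32 to 3.82). JAK3 had 3 UMIs and IFNLR1, the type III interferon receptor chain, had 27, too few to describe. Of the TNFa receptors, TNFRSF1B was called (45.4 in HTO2+HTO9 against 10.3 in HTO3+HTO7, 4.40-fold) and TNFRSF1A was not (HTO3+HTO7 over HTO4+HTO9 1.87-fold, 1.30 to 2.74). Neither met the HTO2 split. The median coefficient of variation was 16.03% over the feedback genes and 28.6% over the other receptors, each below the 47.8% of the 7 genes and above the 13.9% of all genes tested.

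In single cells the receptors and kinases were sparsely detected. JAK1 had a UMI in 65.1% of the 2994 cells, IFNGR2 in 50.9%, IFNAR1 in 44.5%, IFNGR1 in 36.5% (34.7% to 38.2%), IFNAR2 in 24.7%, JAK2 in 15.03% and TYK2 in 12.4%. The highest number of UMIs in a cell was 15 for JAK1, 13 for IFNGR2 and 10 for IFNGR1, and 4 to 7 for the other 4. All 7 genes were found together in 10 cells (0.334%), none of the 7 in 257 cells (8.58%). Both IFNy receptor chains were found in 651 cells (21.7%, 20.3% to 23.3%) and both type I chains in 424 cells (14.2%). These shares depend on depth, and no cell type that should lack these genes was in the data to gauge free RNA.

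With each cell thinned to 4000 UMIs (2808 cells, 186 shallower ones left out), the shares were 40.5% for JAK1, 30.2% for IFNGR2, 25.1% for IFNAR1, 19.2% for IFNGR1, 11.9% for IFNAR2, 6.84% for JAK2 and 5.63% for TYK2. At this equal depth the pairs ranged from 24.4% to 53.9% for JAK1 and from 5.56% to 34.5% for IFNGR1. JAK2 ranged from 0.515% to 21.2%. Before thinning, JAK2 had a UMI in 44.9% of cells in HTO2+HTO8, 41.5% in HTO2+HTO9, 25.4% in HTO4+HTO8 and 20.0% in HTO4+HTO9, against 3.60% to 10.7% in the other 9 pairs.

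**Figure D4:**
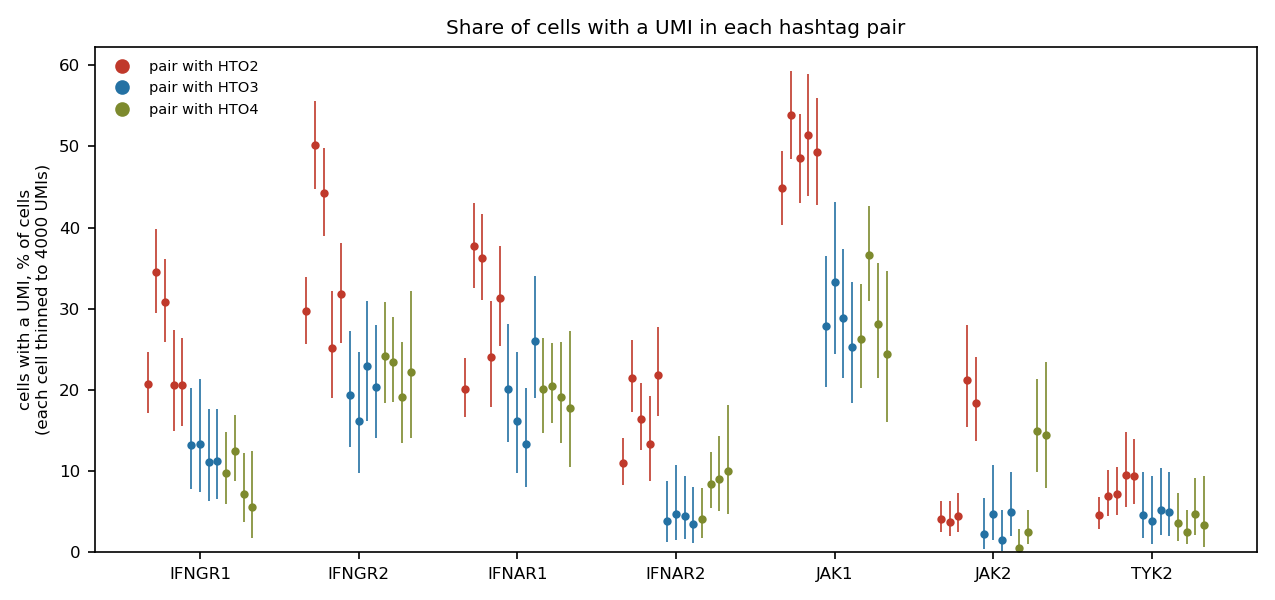
Percent of cells with a UMI of each gene in each hashtag pair after each cell was thinned to 4000 UMIs, with exact Clopper-Pearson 95% intervals; HTO2 pairs are red, HTO3 blue and HTO4 olive. JAK2 reaches 21.2% in its highest pair and 0.515% in its lowest, and JAK1 53.9% and 24.4%.

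Within pairs, cells were split by whether they held a UMI of ICAM1, an adhesion molecule and TNFa target, or of CXCL10, an IFNy target, again at 4000 UMIs per cell. ICAM1 also met the HTO8 and HTO9 split: in HTO4 with HTO6, HTO7, HTO8 and HTO9 it was at 49.2, 34.7, 146 and 212 CPM. So the split by ICAM1 was not read as a measure of TNFa alone. Pairs with 30 cells or more on each side were used, 7 pairs for ICAM1 and 5 for CXCL10. In HTO2+HTO7, with 259 cells that held ICAM1 and 75 that did not, IFNGR1 was at 113 CPM with ICAM1 and 43.3 without (2.61-fold, 1.47 to 5.04). IFNGR2 was at 175 with and 93.3 without (1.87-fold, 1.25 to 2.90), and JAK1 at 209 with and 123 without (1.70-fold, 1.19 to 2.48). JAK2 had 15 UMIs in the cells with ICAM1 and 0 in those without. This was the pair with the clearest difference. IFNGR1 was 1.12-fold (0.76 to 1.66) in HTO2+HTO5 and 1.21-fold (0.69 to 2.33) in HTO2+HTO6, with intervals across 1.

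Over all 7 pairs, IFNGR2 was higher in the cells with ICAM1 in every pair, 1 of the 6 members with 100 thinned UMIs or more, against 1.26% of genes, but the interval lay above 1 in HTO2+HTO7 alone. IFNGR1, IFNAR1, IFNAR2, JAK1 and JAK2 were higher in 6 of 7 pairs. TYK2 was higher with ICAM1 in 5 of 7 pairs, but lower in HTO2+HTO6, at 15.2 with and 46.9 without (0.32-fold, 0.12 to 0.99, from 19 and 6 UMIs). JAK1 was higher with ICAM1 in HTO4+HTO6 (1.93-fold, 1.08 to 3.34). With the pairs on the side without ICAM1 weighted by their numbers of cells with it, IFNGR2 averaged 134 with and 93.9 without and IFNGR1 87.7 with and 60.2 without. On the same weights JAK2 had the largest ratio of the 7 genes, at 17.2 with and 5.64 without, from 70 and 34 UMIs. The side without ICAM1 held 0 JAK2 UMIs in HTO2+HTO6 (32 cells), HTO2+HTO7 (75 cells) and HTO4+HTO6 (157 cells). Its 34 UMIs thus came from the other pairs, and the weighted ratio has no interval. By pair, the JAK2 interval lay above 1 in 1 of 7, HTO2+HTO7. TYK2 alone averaged lower with ICAM1, at 15.7 with and 21.7 without. The 21.7 rests largely on the 6 UMIs in the 32 cells of HTO2+HTO6 without ICAM1, weighted by the 313 cells with it. So it does not show that TYK2 went the other way from the other genes.

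In the split by CXCL10 the levels of the IFNy receptor chains lay close together. Over 5 pairs, weighted in the same way by their cells with CXCL10, IFNGR1 averaged 76.2 CPM with CXCL10 and 75.7 without, and IFNGR2 115.6 with and 120.6 without. No member was higher with CXCL10 in all 5 pairs, 0 of 5 with enough UMIs, against 4.76% of genes. JAK2 averaged 21.9 with and 17.3 without on the same weights, and was higher with CXCL10 in 3 of 5 pairs. JAK1 was higher with CXCL10 in HTO4+HTO9 (2.81-fold, 1.16 to 7.48, from 18 and 8 UMIs). HTO2+HTO8 and HTO2+HTO9, the pairs highest in JAK2, had too few cells without CXCL10 to be split.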

How the data were processed

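The authors deposited 1 matrix of raw UMI counts, not normalised, for 36601 genes and 10 hashtags in 9083 barcodes, and per the file headers Cell Ranger 5.0.1 wrote it. Cell Ranger 2.1.1 and the build GRCh38 come from the submitters' processing notes, and the gene annotation was not given in the sources used here. A barcode was kept as a cell with at least 500 genes and no more than 20% mitochondrial UMIs; 3611 were kept and 5375 exceeded the mitochondrial limit. A cell was given to the pair of its 2 highest hashtags among HTO2 to HTO9 where the second had 20 counts or more and 4 times the third or more. Pairs needed 50 cells or more. Cells without such a pair (617) were left out, which also removed cells with 3 hashtags; no doublet caller was run. Multiplets of cells from 1 tumour remain.

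Counts were summed per pair and scaled to 1000000 UMIs per pair (CPM). Intervals came from scipy 1.17.1 (Python 3.11.15, numpy 2.4.6, pandas 2.3.3, matplotlib 3.10.9). edgeR 4.0.16 in R 4.3.3 gave TMM factors for an alternative. The ratio intervals and the rule for calling a gene were tested on simulated data. The genes named are the 7 members, lists of the pathway and its targets, and per member the 3 genes with the highest Pearson correlation of log2(CPM + 1) over pairs. The members and lists were chosen with earlier results of these data known. Alternatives changed the cell filter, the hashtag rule, the depth, the denominator, the UMI minimum and the weight of cells. Promoter sequences are from RefSeq (GRCh38.p14), in which 6 of 7 members matched. IFNAR2 was not matched. The result of 1 gene of the pathway lists is not reported here.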

Additional observations from a re-analysis of the deposited data

Results flagged for a closer look

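The 617 barcodes that passed the cell filter and had no hashtag pair entered no value above, and the receptors and kinases were present in them: IFNGR1 with 344 UMIs, IFNGR2 with 641, IFNAR1 with 419, IFNAR2 with 255, JAK1 with 956, JAK2 with 118 and TYK2 with 101. In 516 of these barcodes the third hashtag had 20 counts or more. Their levels were 52.0 CPM for IFNGR1, 97.0 for IFNGR2, 63.4 for IFNAR1, 38.6 for IFNAR2, 144.6 for JAK1, 17.8 for JAK2 and 15.3 for TYK2.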

How the results depend on the processing

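The count of 4 called genes was 4 with each pair left out in turn, and 4 to 6 under the other alternatives except the strict cell filter (1000 genes, 10% mitochondrial UMIs). That filter kept 400 cells: 2 genes were called (IFNGR2 and IFNAR2), 1 (IFNGR2) had every HTO2 pair above every other pair, 1 had HTO2+HTO6 and HTO2+HTO7 above the rest, and the log2 ratio of highest to lowest pair for IFNGR1 was 0.44, from 23 against 6 UMIs. TYK2 had 0 UMIs in its lowest pair there and gave no ratio. The count of 5 genes with every HTO2 pair above was 5 to 6 with each pair left out (6 without HTO2+HTO5), 4 (without TYK2) with cells thinned to 4000 UMIs and with the mean over cells, and 2 (JAK1 and TYK2) in barcodes over 20% mitochondrial UMIs alone. With median-of-ratios size factors, and with TMM, HTO2+HTO6 and HTO2+HTO7 were above the rest for 2 genes (IFNGR1 and IFNGR2). These scalings moved the median log2 ratio of HTO2 to other pairs over all genes to -0.01 and 0.04. JAK2 alone met the HTO8 and HTO9 split in all 10 alternatives. The alternatives for splits by hashtag were chosen after seeing the data. No paired analysis was possible because the hashtag pairs were not mapped to tumours and there was 1 library. TYK2 and JAK2 rest on 419 and 572 UMIs, so differences between neighbouring pairs were often not detectable at this depth.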
